A study of Homo sapiens with 2 samples.

Results

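The genes described here build the entrance to the secretory pathway: they bring new proteins into the endoplasmic reticulum (ER), attach N-linked sugars to them and load them into COPII vesicles. The 59 genes were chosen by function from a fixed list, as single-symbol probe sets of the array, and earlier results of the same arrays were known when the list was drawn up. Of these, 56 had a probe set that named them alone, out of 18417 genes named in the series. SEC61G, PGM3 and KDELR2 had no such probe set and were not analysed here. RNA was measured after immunoprecipitation with an antibody against Argonaute2 (Ago2), the protein that holds microRNAs on the mRNAs they pair with. Both cultures were of A549, an established line of human lung adenocarcinoma cells, 1 transfected with empty vector and 1 overexpressing miR-130b, and both groups went through the same precipitation. Each group had 1 array, so replicate error could not be measured and no test was made. The comparison addressed which mRNAs were held in the Ago2 precipitate to a different extent when miR-130b was overexpressed.

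The labels do not say which arm of the microRNA was overexpressed, so both mature arms are shown, as RefSeq gives them on GRCh38.p14. They lie on the plus strand at chr22:21653354-21653375 and chr22:21653316-21653336, and capitals mark the seed, bases 2 to 8, which leads the pairing with a target.
hsa-miR-130b-3p: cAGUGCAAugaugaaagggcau
hsa-miR-130b-5p: aCUCUUUCccuguugcacuac
The probe set of the microRNA's gene, MIR130B, read 6.66 on the log2 scale on the empty-vector array and 12.64 on the miR-130b array, as the labels state. Of 9 measured markers of A549 cells, 6 were higher and 3 lower on the miR-130b array. CDH1 had the largest decrease of them, from 12.61 to 11.49 (-1.12, 2.17-fold lower). At or above the median level of all named genes (8.64) lay 8 of the 9, among them KRT8, KRT18 and NQO1. EPCAM lay below it on both arrays. Of 14 measured markers of leukocytes, endothelium and fibroblasts, CD14, CD68 and CLDN5 reached that level. The summed level of the 4 leukocyte markers was 11.46 on the empty-vector array and 10.83 on the miR-130b array. CD68 alone was lower (-1.18), while CD14 (0.63), PTPRC (0.20) and CD3E (0.021) were above 0. That of the 5 endothelial markers was 9.58 and 9.82, and that of the 5 fibroblast markers was 9.15 and 9.46. Their part in the differences below was not tested.

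A secreted or membrane protein is recognised on the ribosome by the signal recognition particle (SRP), threaded through the Sec61 channel and freed of its signal peptide by signal peptidase. An oligosaccharide assembled on dolichol is transferred to it in the same compartment, and the COPII coat then carries it towards the Golgi with the help of cargo receptors. Many of these genes are known to be induced together with ER chaperones by the unfolded protein response (UPR), the programme that enlarges the ER when folding load rises.

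Most of the pathway was lower on the miR-130b array. The log2 difference, miR-130b minus empty vector, was below 0 for 50 of the 56 measured genes and above 0 for 6, and the median was -0.34 (quartiles -0.51 and -0.15). At least 1.5-fold lower were 11 genes, and 0 were at least 1.5-fold higher. Among all named genes, 40.6% were below 0, 4.65% at least 1.5-fold lower and 3.65% at least 1.5-fold higher, with a median of 0.05. Among the 9209 genes at or above the median level, a filter that 55 of the 56 passed (all but ALG6), these shares were 48.4%, 5.87% and 5.04%, and the median was 0.01. The 3 members at least 2-fold lower were SEC11C, SEC24D and ALG12, against 1.37% of all named genes and 1.6% of those at or above the median level. Since the list was drawn up with these arrays in view, the counts are a description and support nothing by themselves.

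As a yardstick within the arrays, different probe sets of 1 gene disagreed in their difference with a pooled SD of 0.16. It was taken over 356 genes at or above the median level, so it may not hold for genes below that level. Of the members, 29 were lower by more than 2 such SDs and 0 were higher by that much. Of all named genes, 11.6% were lower and 11.8% higher by more than 2 SDs, and of those at or above the median level, 15.4% and 14.2%. That SD leaves out variation between cultures and between precipitations. The values came from whole cultures without an array of the RNA before precipitation among the data used here. Fewer cells with an mRNA, less of it per cell and less of it bound to Ago2 therefore cannot be told apart.

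**Figure D1:**
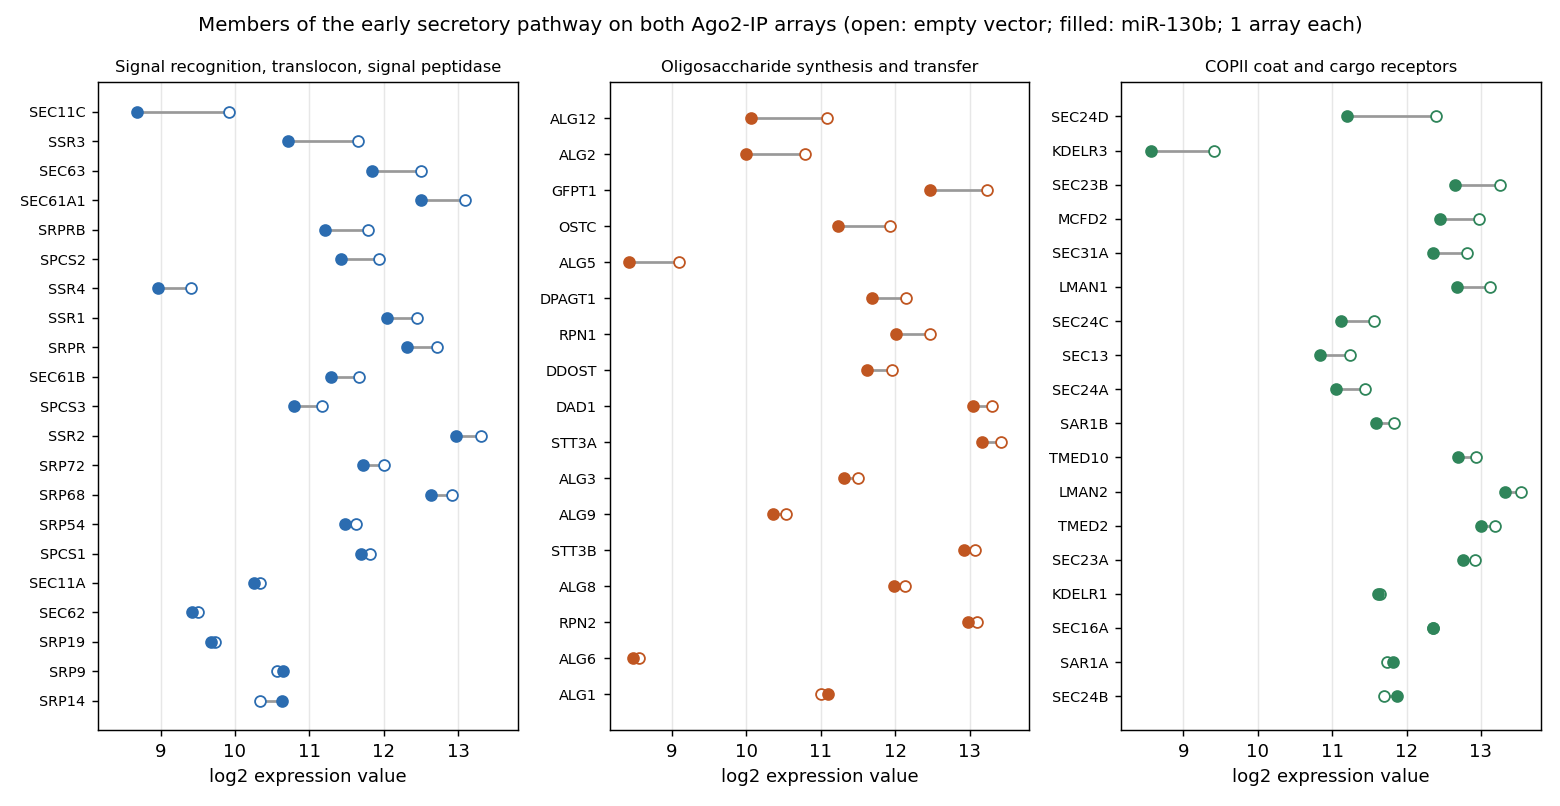
Log2 expression value of the 56 measured genes on both arrays, in 3 panels by function and ordered by difference. Open circles are the empty-vector array and filled circles the miR-130b array (1 array each, no error). In 50 genes the filled circle lies to the left, and SEC11C, SEC24D and ALG12 have the longest lines.

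Each arm of the pathway had a median below 0. Signal recognition and translocation genes, signal peptidase included, had a median of -0.37, with 19 of 21 measured genes below 0. Oligosaccharide synthesis and transfer genes had a median of -0.27, with 16 of 17 below 0. COPII coat and cargo receptor genes had a median of -0.32, with 15 of 18 below 0. The arms' medians lay no more than 0.11 apart, a gap that was not tested.

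Recognition of the signal sequence showed small differences in the particle and larger ones in its receptor. All 8 genes of this step were measured, 6 below 0, none of them past 1.5-fold, with a median of -0.21. The receptor's membrane subunit SRPRB read 11.78 on the empty-vector array and 11.20 on the miR-130b array, a difference of -0.58 (1.49-fold lower), just short of 1.5-fold. Its partner SRPR (now SRPRA), the subunit that docks the particle, stood at 12.72 and 12.32, a difference of -0.40. SRP68 and SRP72, which form the particle's protein core, were both lower by 1.21-fold, with differences of -0.27 and -0.28. SRP54, which binds the signal peptide, differed by -0.15 and SRP19, an assembly factor, by -0.056. The Alu-domain proteins went the other way. SRP14 had the largest increase of all members, from 10.34 to 10.63 (0.29, 1.22-fold higher). SRP9, its partner, differed by 0.087, with 0.052 and 0.12 from its 2 probe sets.

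At the translocon all 8 measured genes were lower with miR-130b, with a median of -0.42, and 2 were past 1.5-fold. SSR3, the gamma subunit of the translocon-associated protein (TRAP) complex, had the largest difference of the step, from 11.65 to 10.72 (-0.93, 1.91-fold lower). The other TRAP subunits were lower by less: SSR4 differed by -0.44, SSR1 by -0.41 and SSR2 by -0.33. SEC63, the J-domain protein that recruits the chaperone BiP to the channel, stood at 12.50 and 11.84 (-0.66, 1.58-fold lower). Its partner SEC62 hardly differed, at 9.50 and 9.42 (-0.078). SEC61A1, the channel itself, stood at 13.09 and 12.51, a difference of -0.58 that was just short of 1.5-fold. SEC61B, the small beta subunit, differed by -0.38.

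Signal peptidase held the largest decrease among the members. SEC11C, 1 of the alternative catalytic subunits, read 9.92 on the empty-vector array and 8.69 on the miR-130b array, a difference of -1.23 (2.35-fold lower). It lay at the 0.89th percentile of the genes at or above the median level. SEC11A, the other catalytic subunit, stood at 10.34 and 10.26 (-0.079). Among the non-catalytic subunits, SPCS2 differed by -0.51, with -0.52 and -0.50 from its 2 probe sets, SPCS3 by -0.37 and SPCS1 by -0.13. All 5 genes were below 0 and the median was -0.37.

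Synthesis of the lipid-linked oligosaccharide was unequal from gene to gene. Of 10 measured genes, 9 were below 0 and 4 were at least 1.5-fold lower, with a median of -0.32. ALG12, a mannosyltransferase that works on the luminal side of the ER, stood at 11.08 and 10.06 (-1.02, 2.03-fold lower). ALG2, which adds mannose on the cytosolic side, stood at 10.78 and 9.99 (-0.79, 1.73-fold lower). GFPT1, the entry enzyme of the hexosamine pathway that makes UDP-GlcNAc, stood at 13.24 and 12.47 (-0.77, 1.70-fold lower). ALG5, which makes dolichol-phosphate-glucose, stood at 9.09 and 8.42 (-0.67, 1.59-fold lower). These values lay between the 1.53rd and the 4.44th percentile of the genes at or above the median level. DPAGT1, which starts the chain on dolichol and is the target of tunicamycin, differed by -0.46. The remaining transferases differed little: ALG3 by -0.18, ALG9 by -0.17, ALG8 by -0.14, ALG6 by -0.089 and ALG1 by 0.094. ALG12 and ALG9, mannosyltransferases of neighbouring reactions, thus differed from each other by more than the members' whole interquartile range.

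The oligosaccharyltransferase, which moves the finished chain onto the protein, was lower in all 7 genes by mostly small amounts, with a median of -0.27. OSTC, a subunit that joins the complex to the translocon, was the 1 gene past 1.5-fold, from 11.93 to 11.23 (-0.70, 1.63-fold lower). RPN1, also called ribophorin I, differed by -0.45 and DDOST, a subunit needed for assembly, by -0.34. The catalytic subunits STT3A, which works with the translocon, and STT3B, which can act after translocation, differed by -0.25 and -0.15. DAD1, a small subunit named as a defender against cell death, differed by -0.27 and RPN2 by -0.13.

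**Figure D2:**
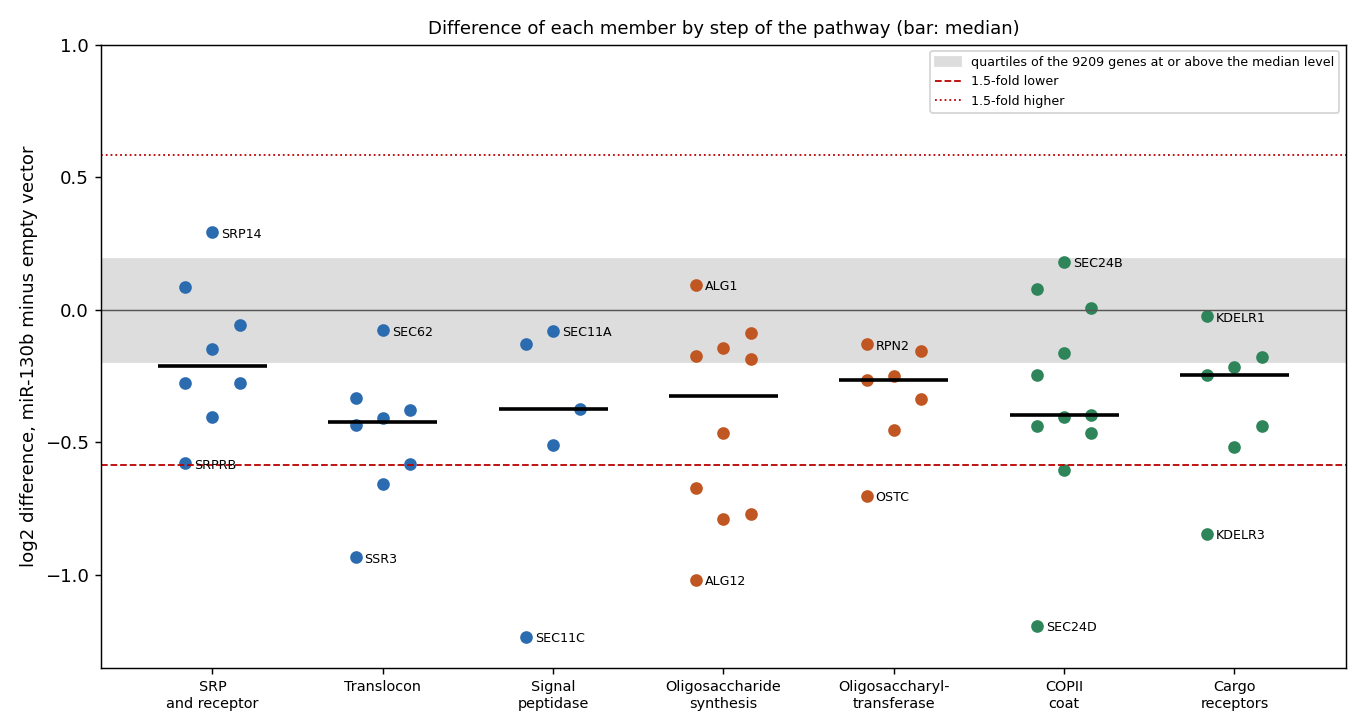
Log2 difference (miR-130b minus empty vector) of each measured gene in the 7 steps, with a bar at the median of the step and a grey band at the quartiles of the 9209 genes at or above the median level. Dashed and dotted lines mark 1.5-fold lower and higher. Points of the translocon lie between -0.93 and -0.08, and SEC11C and SEC24D lie apart from the rest of their steps.

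Isoforms of the COPII coat differed unequally. Of 11 genes, 8 were below 0, 3 above 0 and 2 at least 1.5-fold lower, with a median of -0.40. SEC24D, a cargo-selecting subunit of the inner coat, read 12.39 on the empty-vector array and 11.20 on the miR-130b array (-1.19, 2.28-fold lower). SEC24C stood at 11.56 and 11.12 (-0.44), SEC24A at 11.44 and 11.05 (-0.40) and SEC24B at 11.69 and 11.87 (0.18). SEC24B and SEC24D were therefore 1.37 apart. SEC23B, the GTPase-activating subunit of the inner coat, stood at 13.25 and 12.65 (-0.61, 1.52-fold lower), while SEC23A stood at 12.92 and 12.75 (-0.16). The difference of SEC23B fell just short of 1.5-fold under quantile normalization and under cyclic loess (-0.58 in both), which left 10 members past it. The outer-coat genes SEC31A and SEC13 differed by -0.47 and -0.40. SAR1B, a GTPase that starts coat assembly, differed by -0.25 and SAR1A by 0.079. SEC16A, the scaffold of ER exit sites, stood at 12.35 and 12.36, and its difference of 0.0058 turned to -0.047 when all differences were centred on their median. It was the 1 member whose sign changed under quantile normalization, cyclic loess or centring.

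All 7 measured cargo receptor genes were lower, with a median of -0.24. KDELR3, a receptor that returns KDEL-tailed chaperones to the ER, stood at 9.41 and 8.56 (-0.85, 1.80-fold lower). KDELR1 differed by -0.025, at 11.65 and 11.62. MCFD2 and LMAN1, which together carry coagulation factors V and VIII, stood at 12.97 and 12.45 (-0.52) and at 13.12 and 12.68 (-0.44). LMAN2, a related lectin, differed by -0.21. The p24-family proteins TMED10 and TMED2, which sort cargo such as GPI-anchored proteins, differed by -0.24 and -0.18. KDELR3 and ALG5 passed the filter on mean level, as did MAGT1 and ERO1B of the further lists, but their values with miR-130b were below it, and array background can make a fold at such levels too small.

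Related genes of the same step were set side by side. The catalytic subunits of signal peptidase were 1.15 apart, KDELR1 and KDELR3 were 0.82 apart, SEC23A and SEC23B 0.44, SAR1A and SAR1B 0.33, LMAN1 and LMAN2 0.23, STT3A and STT3B 0.096 and TMED2 and TMED10 0.067. The last 2 gaps are smaller than the pooled SD between probe sets of 1 gene. A gap carries the spread of 2 genes, so that SD is too narrow as a limit for the other gaps. Probe sets of related genes can share sequence, and cross-hybridisation was not tested.

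**Figure D3:**
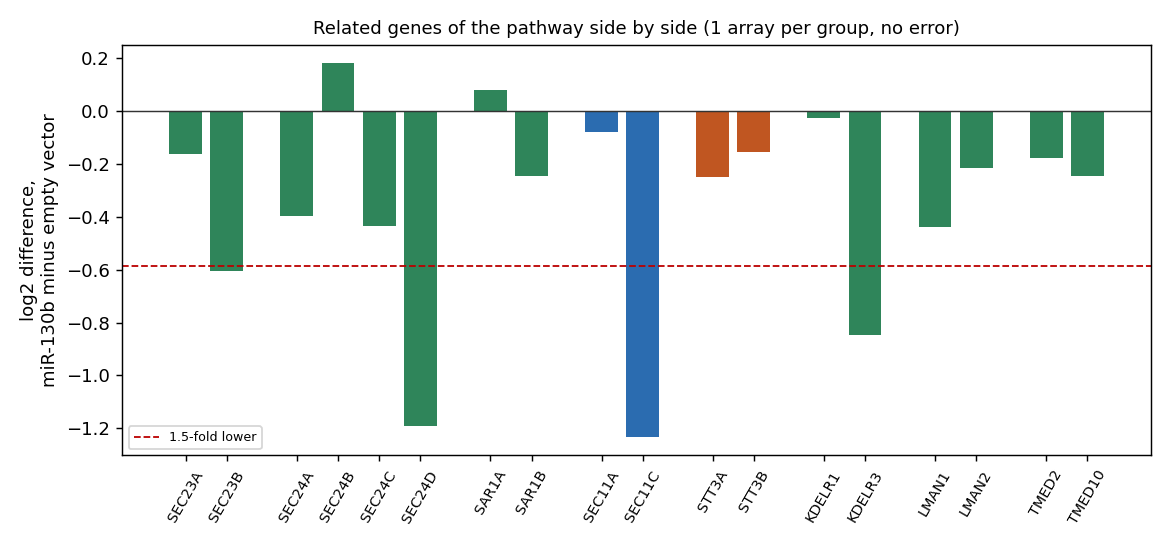
Log2 difference (miR-130b minus empty vector) of related genes, grouped by family, with 1 array per group and no error. The dashed line marks 1.5-fold lower. SEC24D, SEC11C and KDELR3 reach -1.19, -1.23 and -0.85, while SEC24B, SEC11A and KDELR1 lie at 0.18, -0.08 and -0.02.

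The other genes of the pathway were mostly lower too. Their lists were drawn by function and not trimmed by value, but with earlier results of these arrays known. Beside each list stand the shares of all named genes: 40.6% below 0, 4.65% at least 1.5-fold lower and 3.65% at least 1.5-fold higher. At or above the median level these shares were 48.4%, 5.87% and 5.04%. Of 21 other translocation genes (the EMC and GET insertion routes among them), 17 were below 0, 4 at least 1.5-fold lower and 0 at least 1.5-fold higher, with a median of -0.15. EMC2, a subunit of the ER membrane complex, was the lowest at -0.86. DNAJC1, an ER J-domain protein, followed at -0.61 and TRAM1, a translocon-associated membrane protein, at -0.60. The highest were EMC10 at 0.14, EMC8 at 0.11 and GET1 at 0.084. Of 26 other N-glycosylation genes, 19 were below 0, 6 at least 1.5-fold lower and 0 higher by that much, with a median of -0.26. GMPPA and GMPPB, the subunits that govern and make GDP-mannose, were the lowest, from 11.36 to 10.26 (-1.09) and from 10.64 to 9.65 (-0.99). MAGT1, the oxidoreductase subunit of STT3B complexes, followed at -0.79 (8.38 on the miR-130b array), while its paralog TUSC3 was the highest at 0.23, above DOLK (0.13) and DPM3 (0.082).

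Among 28 other COPII and ER-Golgi genes, 21 were below 0, 5 at least 1.5-fold lower and 0 higher by that much, with a median of -0.26. STX5, a Golgi SNARE that receives the vesicles, stood at 10.69 and 9.43 (-1.26, 2.39-fold lower). PREB, also known as SEC12, the exchange factor that activates SAR1, stood at 10.95 and 9.79 (-1.16, 2.24-fold lower). MIA3, also known as TANGO1, which helps to export collagen, differed by -0.91. ERGIC2 (0.25), TMED8 (0.21) and ERGIC1 (0.18) were the highest of the list. The COPI list holds the coat of the return route from the Golgi, ARF GTPases and their regulators. It was below 0 in 14 of 14 measured genes with a median of -0.23. ARFGAP3 (-0.93), ARF4 (-0.59) and ARFGAP2 (-0.46), which are not coat subunits, were its lowest, and ARFGAP3 and ARF4 were past 1.5-fold. The measured coat subunits ran from -0.42 (COPE) to -0.051 (COPZ2).

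ER chaperones and UPR regulators are known to be induced along with this pathway. Of 18 measured ER chaperones and folding factors, 18 were below 0 and 11 at least 1.5-fold lower, and their median of -0.87 was lower than that of the members (-0.34). CRELD2 (-2.50), DNAJB9 (-2.33) and ERO1B (-2.25) were the lowest, ERO1B with 8.38 on the miR-130b array. Of 10 measured UPR regulators, 9 were below 0 and 6 at least 1.5-fold lower, with a median of -0.64. Among all genes at or above the median level, 48.4% were below 0 and 5.87% at least 1.5-fold lower. DDIT3, the stress factor CHOP, was at -2.50, and the ER sensors EIF2AK3 (PERK) and ERN1 (IRE1) at -1.02 and -1.01. MBTPS1, the protease that activates ATF6, was the 1 regulator above 0, at 0.17. The difference between the lists was not tested, since each group has 1 array.

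**Figure D4:**
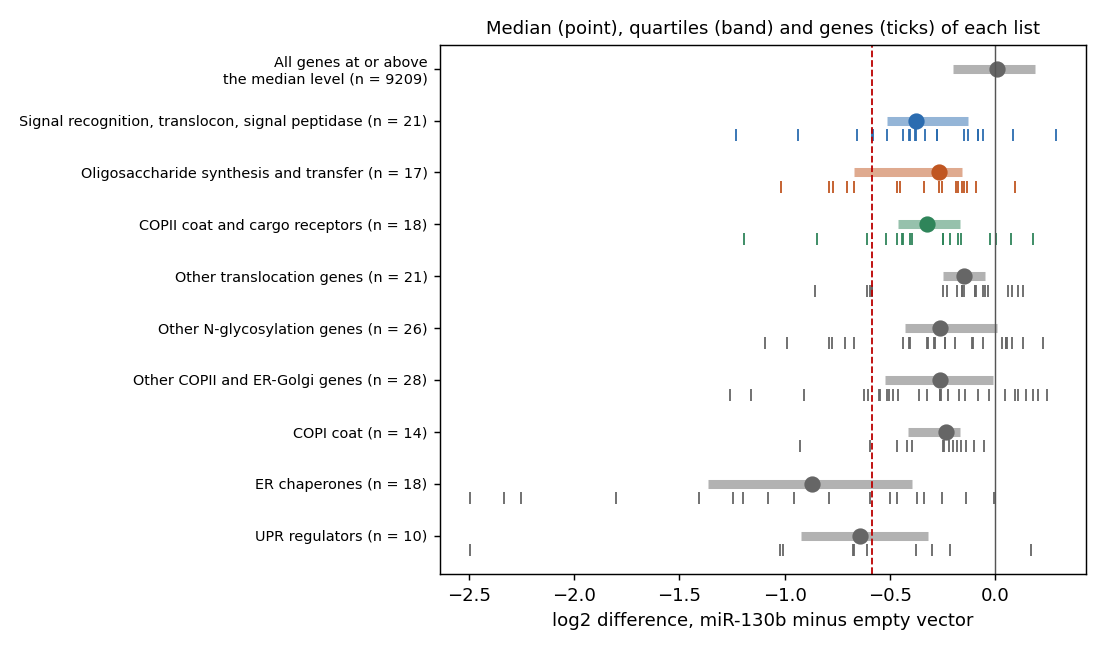
Median (point), quartiles (band) and single genes (ticks) of the log2 difference, miR-130b minus empty vector, for the 3 arms of the pathway, 6 further lists and the 9209 genes at or above the median level, with a dashed line at 1.5-fold lower. The arms' medians lie between -0.37 and -0.27, the ER chaperones' at -0.87.

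The promoters of the members were searched for the elements through which the UPR factors ATF6 and XBP1 are known to act, because many of the genes were lower together. RefSeq promoters (GRCh38.p14, 250 bases before to 50 after a start site) were given for 53 of the 59 genes, with 75 start sites. The table holds none for SRPR, SPCS1, RPN1, STT3B, SEC24D and KDELR2. Both strands were searched for the ER stress element ERSE (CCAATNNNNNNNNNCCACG), ERSE-II (ATTGGNCCACG), the UPR element UPRE (TGACGTGG) and the cAMP response element CRE (TGACGTCA). The other strand of UPRE reads CCACGTCA and opens with the letters that close ERSE, so the motifs can overlap. UPRE was found in 8 of the 53 genes (15.1%), against 0.927% of all 27305 genes with a promoter and 1.3% of the 7617 of them at or above the median level. Counted by promoter, since a gene can have several, it was in 0.729% of all 35116. It was in 4 of 20 translocation genes and 4 of 17 transport genes, and in 0 of 16 glycosylation genes. ERSE was found in 1 of the 53 members (1.89%), ALG12, against 0.0916% of all genes with a promoter and 0.197% of those at or above the median level (0.0769% of all promoters). ERSE-II was in 0 members, against 0.0696% and 0.158% of the same genes (0.0541% of all promoters). CRE was in 0 members too, against 2.25% and 4.06% (1.85% of all promoters). A match shows only that these letters are present, not that a factor binds them.

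The windows below show members that carry UPRE well before the start site, from the largest to the smallest difference, read 5′ to 3′ along the gene with the element in capitals. SEC62, SEC23A and SEC16A carry it closer to or after the start site and are not printed.
SSR3 (chr3:156554148-156554177, minus strand): tctgataacagCCACGTCAgcaaggaaact
KDELR3 (chr22:38468039-38468068, plus strand): ggccgccctggCCACGTCAccgcccggcca
SSR4 (chrX:153794528-153794557, plus strand): tcagggaggggCCACGTCAgtgctgccaga
SEC24A (chr5:134648595-134648624, plus strand): gtgagagtcggTGACGTGGcggcgaggccg
SRP19 (chr5:112861164-112861193, plus strand): aagtcttcatgCCACGTCAgagactagaga
The element began 41 bases before the start site in SSR3, 46 in KDELR3, 129 in SSR4, 179 in SEC24A and 112 in SRP19. SSR3 (-0.93) and KDELR3 (-0.85) were at least 1.5-fold lower. SSR4 (-0.44) and SEC24A (-0.40) were lower by less, and SEC23A (-0.16), SEC62 (-0.078), SRP19 (-0.056) and SEC16A (0.0058) differed little. The 8 genes had a median of -0.28, and the 42 measured members with a promoter but neither UPRE nor ERSE had a median of -0.30. All 8 lay within the range of the members that carry neither element.

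ALG12, the member with ERSE, lies head to head with CRELD2, the chaperone-list gene with the largest decrease, and both start sites share the element. It begins 134 bases before the start site of ALG12 on 1 strand and 80 bases before that of CRELD2 on the other. The windows below overlap by 29 bases, and capitals mark ERSE.
ALG12 (chr22:49918548-49918577, minus strand): atggcCCAATCCGAGTTCGCCACGagaggt
CRELD2 (chr22:49918549-49918578, plus strand): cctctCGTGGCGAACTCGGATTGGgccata
CRELD2 read 11.17 on the empty-vector array and 8.67 on the miR-130b array (-2.50, 5.64-fold lower), and ALG12 at 11.08 and 10.06 (-1.02, 2.03-fold lower). Both genes of this pair were lower, CRELD2 by 1.48 more on the log2 scale.

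**Figure D5:**
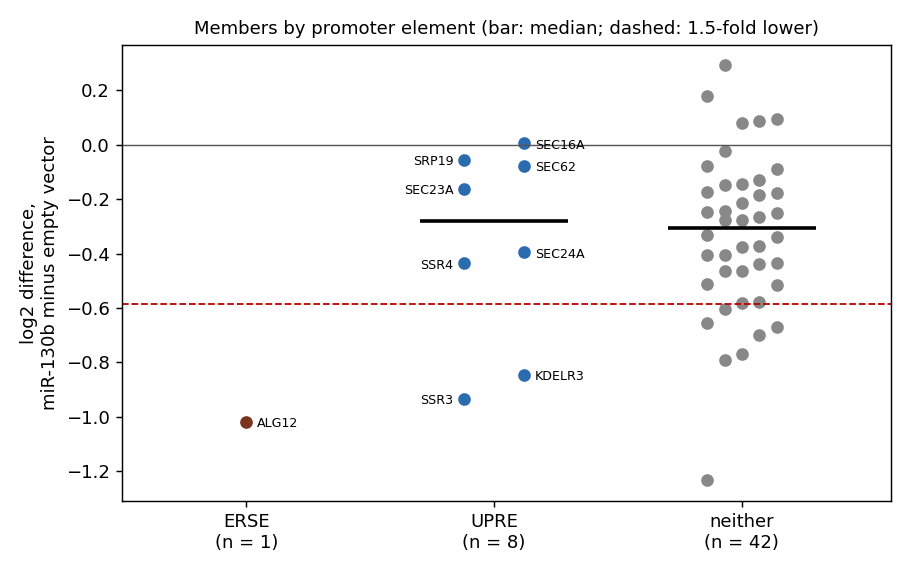
Log2 difference (miR-130b minus empty vector) of the 51 measured members with a RefSeq promoter, grouped by ERSE (1 gene), UPRE (8 genes) or neither (42 genes), with bars at the medians of the larger groups and a dashed line at 1.5-fold lower. Genes with UPRE run from -0.93 to 0.01, inside the range of those with neither.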

How the data were processed

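Per the labels, RNA precipitated with an anti-Ago2 antibody was labelled with biotin as whole-transcript cDNA for an Affymetrix array, 1 array per group. The extraction text of the labels describes excised tissue, so how the precipitated RNA was purified is uncertain. The table the submitters deposited holds 33297 probe sets on a log2 scale, with a median of 7.77 on both arrays. The unit was read from their range, 1.95 to 14.2. How the background was corrected and the arrays normalized is not given in the sources. Both arrays have similar distributions, so differences are relative to the rest of the array. No detection p-values were used.

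Probe sets with 1 gene symbol (19460 of the 21214 that the supplied platform annotation lists) were updated through Entrez identifiers (19429 matched) and averaged per gene. Probe sets with several symbols (1754) and unnamed ones (12083) were left out. Differences are miR-130b minus empty vector. Genes past 1.5-fold were counted over all measured members without a filter on low values, and beside all genes. The members and lists were chosen with earlier results of these data known, and the further lists and promoter motifs were drawn from general knowledge. All measured members were named, with the 3 largest differences each way of each further list among genes at or above the median level, and MIR130B. AGO2 was listed as a second check and stood at 11.41 and 11.66. Markers named as examples were picked after their values were seen. With 1 array per group no test was computed, and the number of arrays limits the precision. Counting, medians and the motif search were tested on simulated data. Alternatives were filters on level, quantile normalization, cyclic loess (limma 3.58.1, R 4.3.3), centring, the brightest probe set, the mean and other folds. Python 3.11.15 was used.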

Additional observations from a re-analysis of the deposited data

How the results depend on the processing

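The medians stayed below 0 in each of the 7 alternatives. That of all members ran from -0.39 to -0.31, that of translocation from -0.43 to -0.34, that of glycosylation from -0.38 to -0.23 and that of transport from -0.37 to -0.25. The arms changed order: by the mean of the members glycosylation moved from -0.27 to the lowest place (-0.38, against -0.36 for translocation and -0.34 for transport). Of the alternatives, the threshold moved the count of lower members most, from 11 to 3 at 2-fold and to 29 at a log2 difference of -0.32, and 8 to 13 genes were counted under the others. Of all 18417 named genes, 252 were lower by 2-fold, and at a log2 difference of -0.32 or below there were 2171 (11.8%), with 2227 (12.1%) as far above 0. Higher members, counted at the fold of each alternative, were 0 under each of the 8 run for that count. The 2-fold threshold, the filters on level and centring, which lowered all differences, could only return 0 there. No paired analysis was possible because each group has 1 array. No replicate could be left out for the same reason. The files give no signal over background, so members at low levels (ALG5, ALG6, KDELR3), and MAGT1 and ERO1B of the further lists, have an uncertain fold. The same limit holds for SEC11C, CRELD2 and DNAJB9, whose values with miR-130b (8.69, 8.67 and 8.77) lay just above the filter level of 8.64.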

Other observations

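Exact matches to ERSE were rare, in 15 of the 7617 genes at or above the median level with a promoter. All 15 were below 0 on the miR-130b array, with a median of -0.59, and 8 of them were at least 1.5-fold lower. Of the 7617, 3674 were below 0 and 405 at least 1.5-fold lower, with a median of 0.01. ALG12 and CRELD2, which share 1 element, were each counted. Most of the 15 came from lists chosen with earlier results of these arrays known, so the counts support nothing by themselves. Of the 15, 6 lay outside the lists used in the report and were looked at only after the members' values were known. FICD, an ER enzyme that modifies the chaperone BiP, read 12.17 on the empty-vector array and 10.13 on the miR-130b array (-2.04). SERP1, a small protein of the translocon also called RAMP4, stood at 12.40 and 11.70 (-0.71). EIF2A, a translation factor, differed by -0.68, TMEM120A by -0.38, TRIM5 by -0.33 and SYNPO by -0.027. ERSE-II was mixed: of the 12 genes among the 7617 that carry it, 8 were below 0 and 4 above 0. Their median was -0.31, and 5 were at least 1.5-fold lower. The 10 of them outside the lists had a median of -0.12, with 6 below 0 and 4 above 0. CRE was in 309 of the 7617, 145 below 0 and 164 above 0, with a median of 0.012.

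UPRE was in 99 of the same 7617 genes. The 99 had a median of -0.13, with 11 at least 1.5-fold lower and 4 at least 1.5-fold higher, against 405 and 356 of the 7617. The 82 of the 99 outside the lists had a median of -0.063, with 6 lower and 4 higher by that much. Of all 7469 such genes outside the lists, with or without UPRE, 368 were lower and 356 higher by that much, with a median of 0.015. By list, UPRE was most frequent in the COPI list, in 5 of 13 genes with a promoter (38.5%). These were the coat subunits COPA, COPB1 and COPB2, and ARF1 and GBF1, which are not subunits. They differed by between -0.25 and -0.099. The other measured genes of the further lists that carry it were HYOU1, an ER chaperone (-1.40), STX5 (-1.26), DHDDS, which makes the dolichol precursor (-0.71), TXNDC11 (-0.50) and SEC16B (-0.22, below the median level on both arrays).

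Some genes of the further lists were seen only through probe sets that name several genes. The probe sets shared by ALG10 and ALG10B, glucosyltransferases of the oligosaccharide, differed by -0.33 and -0.32. That shared by ALG11 and UTP14C differed by -0.33, that shared by TMED7 and TICAM2 by -0.55 and that shared by COPG2 and TSGA13 by 0.025. In the chaperone list, the probe sets shared by PDIA3 and PDIA3P1 differed by -0.57 and -0.53. That shared by TXNDC5 and BLOC1S5 differed by -0.21. In the UPR list, those shared by ATF6B and TNXB each differed by -0.23.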
